A study of Mus musculus with 11 samples.

Results

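The interferon-stimulated genes of 4 murine melanocyte and melanoma cell lines are described here, from 49 genes listed by symbol. A row in the expression files was found for 48 of the 49, among 14272 genes in all, and Ifi44 had none. The list was split by the interferon to which each gene is best known to respond. The type I list held 29 genes with a row, among them Isg15, Ifit1, Oasl2 and Rsad2. The type II-leaning list held 6, Irf1, Gbp2, Gbp3, Gbp7, Igtp and Irgm1, and 13 genes known to respond to both, such as Samhd1, Sp100, Parp9 and Apol9a, formed the remaining list.

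Type I interferons bind the receptor pair IFNAR1 and IFNAR2, and the kinases JAK1 and TYK2 then activate a complex that holds STAT2 and IRF9 and binds the interferon-stimulated response element (ISRE) of antiviral genes. Interferon gamma, the type II interferon, binds IFNGR1 and IFNGR2 and acts through JAK1 and JAK2 on the gamma-activated site (GAS) of genes such as Irf1, whose product induces guanylate-binding proteins and immunity-related GTPases. In melanocytes and melanoma cells the pathway is best known for antigen presentation, growth arrest and the sensing of nucleic acids in the cytosol.

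Total RNA was sequenced in 11 libraries. The line melan-a, spontaneously immortalized melanocytes that are nonmalignant, syngeneic to C57BL/6 mice and of epithelial morphology, had 2 libraries (replicates 2 and 3), and replicate 1 was not analysed here. The other lines were derived from melan-a by sequential cycles of detachment and re-adhesion and had 3 libraries each. 4C is pre-malignant, non-tumorigenic and mesenchymal-like, 4C11− is a mesenchymal-like melanoma that does not metastasize, and 4C11+ is a metastatic melanoma of epithelial morphology. All were grown with 5% fetal bovine serum, and melan-a alone received 200 nM of the phorbol ester PMA, so the effects of PMA and of the line cannot be told apart in comparisons with melan-a. No interferon was added in the protocols. Each stage is represented by 1 line, and the labels do not say whether its replicates are separate cultures. The p-values measure the spread between these replicates only.

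Values are log2 CPM, read counts scaled to the size of the library on a log2 scale, made by the authors. The depth, inferred from how far apart neighbouring low values lie, was about 3500000 to 7420000 reads. A gene with no more than 3 reads in every library of a line is given as a lower bound of its difference, computed from the value at 3 reads. The labelled cell types were checked with markers. The 9 melanocyte markers summed to 10.94 and 13.17 on the log2 CPM scale in melan-a and to 13.46 to 13.73 in 4C11+, but only to 1.98 to 3.68 in 4C and 4C11−, where Tyr was at 3 reads or fewer in every library. Within melan-a, Tyr and Pmel were low (−0.25 and 1.29, and 2.41 and 2.95), while Dct, Mitf and Sox10 were at 7.73 or more. Of 11 immune cell markers 9 had no row, Ptprc among them, and the summed level of the other two, Csf1r and Lyz2, ranged from 1.86 to 5.27. None of the 3 endothelial and 2 keratinocyte markers had a row. Of 5 fibroblast markers 3 had no row, Dcn, Lum and Thy1. The other 2, Col1a1 and Pdgfra, summed to 10.67 to 11.08 in the mesenchymal-like lines and to 2.94 to 6.42 in the epithelial ones. Differences in RNA per cell and in the share of responding cells cannot be told apart in bulk RNA.

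Promoter sequence is shown first for 8 genes with a motif match, 3 of type I and 5 type II-leaning, because ISRE and GAS are the sites through which the pathway is known to act. They were picked for their matches and do not stand for all 48 genes. RefSeq windows (GRCm38.p6, the build of the files) were found for 38 of the 48 genes, and the 250 bases before each start were searched on both strands. The ISRE was written as GAAANNGAAA and the GAS as TTCNNNGAA, and matches to the motifs can overlap. An ISRE match was present for 15 of the 38 genes (39.5%), against 3.46% of all genes with a window, and a GAS match for 8 (21.1%), against 8.13%. By class, an ISRE match was found for 5 of 6 type II-leaning genes, 3 of 10 genes of both types and 7 of 22 type I genes, and a GAS match for 3, 1 and 4 of them. Capitals mark the matches, and the sequences run 5′ to 3′ on the strand of the gene, each a stretch of its window around the matches.
Isg15, chr4:156200850-156200921, minus strand, 3 overlapping ISRE matches: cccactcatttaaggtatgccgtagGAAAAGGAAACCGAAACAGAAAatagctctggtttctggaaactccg
Ifit1, chr19:34640760-34640838, plus strand, 2 ISRE matches: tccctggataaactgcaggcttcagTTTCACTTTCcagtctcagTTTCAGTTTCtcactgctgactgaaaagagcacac
Rsad2, chr12:26456538-26456597, minus strand, 1 ISRE match: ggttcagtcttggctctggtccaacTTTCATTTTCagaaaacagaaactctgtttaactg
Irf1, chr11:53769899-53769957, plus strand, 1 GAS match: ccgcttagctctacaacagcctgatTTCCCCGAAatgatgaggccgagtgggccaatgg
Igtp, chr11:58199486-58199555, plus strand, 1 GAS and 1 ISRE match: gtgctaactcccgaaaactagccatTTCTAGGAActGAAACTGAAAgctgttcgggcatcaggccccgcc
Gbp2, chr3:142620579-142620638, plus strand, 1 ISRE match: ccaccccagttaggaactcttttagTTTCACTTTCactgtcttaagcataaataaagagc
Gbp3, chr3:142559974-142560039, plus strand, 2 overlapping ISRE matches: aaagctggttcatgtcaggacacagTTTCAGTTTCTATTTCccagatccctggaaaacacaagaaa
Gbp7, chr3:142530205-142530317, plus strand, 2 GAS matches and 1 ISRE match: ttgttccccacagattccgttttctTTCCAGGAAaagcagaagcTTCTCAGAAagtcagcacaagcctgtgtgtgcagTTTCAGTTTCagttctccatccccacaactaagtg
A match describes the letters of the window and does not show that a factor binds there. The windows of Gbp2, Gbp3 and Gbp7 lie in 1 cluster of chromosome 3, where Gbp7 and Gbp3 are 9876 bases apart.

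Before the lines were compared, the libraries of each line were compared among themselves, since 2 libraries stood apart for these genes. Melan-a replicate 2 was above melan-a replicate 3 for 41 of the 48 genes, against 47.2% of all genes, and by more than 1 log2 unit for 27, against 13.5%. 4C11− replicate 1 was the highest of its line for 40 of 48, against 53.6%, and exceeded the mean of the other two by more than 1 for 33, against 13.6%. Both excesses were over 1 for 22 genes, against 4.18% of all genes. Gbp2, a guanylate-binding protein, was at 3.50 in melan-a replicate 2 and at −1.42 in replicate 3, and Irf7, the transcription factor that amplifies type I interferon production, was at 5.97 in 4C11− replicate 1 against 2.45 and 1.91 in its other libraries. The order was the opposite in both lines for Ifit2, for Eif2ak2 (−0.32 in melan-a and −1.72 in 4C11−) and, by little, for Samhd1 (−0.10 and −0.36). In 4C11− it was also the opposite for Gbp7, Parp14, Ifit1 and Ifih1. Gbp7 was at 3 reads or fewer in both melan-a libraries. Ifih1 was at 5.26 and 0.60 in melan-a but at 4.33, 5.53 and 5.87 in 4C11−.

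Other measures differed between these libraries too. In melan-a replicate 2 the melanocyte markers summed to 10.94, against 13.17 in replicate 3, the fibroblast markers to 6.42, against 4.15, and the depth was about 3500000 reads, against 5820000. In 4C11− replicate 1 the 2 immune markers summed to 5.27, against 2.82 and 3.38, and the depth was about 4580000 reads, against 7420000 and 6690000. Their part in the levels of interferon-stimulated genes was not tested. Most counts or medians below are therefore also given without either or both of these libraries. Leaving out both was an alternative chosen after the data were seen.

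**Figure D1:**
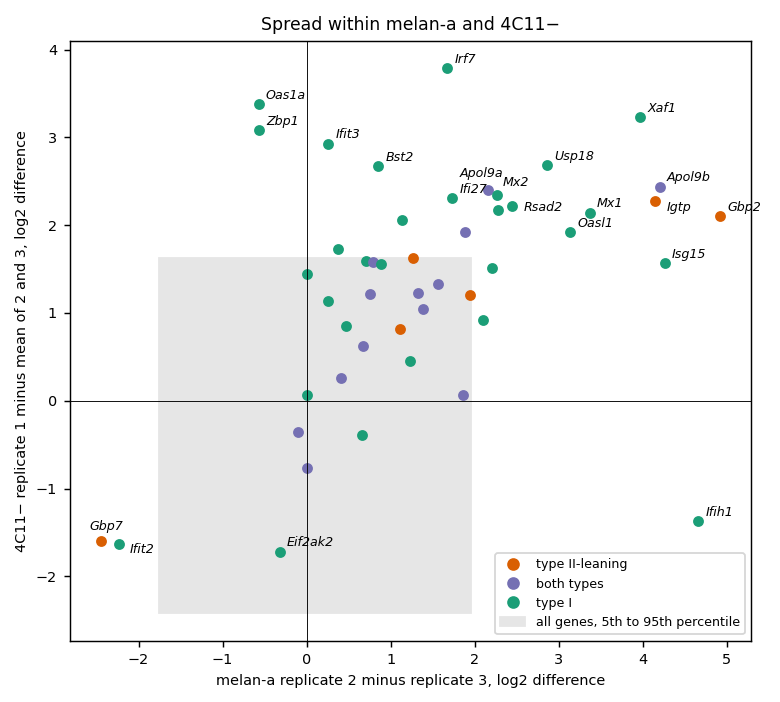
Each point is 1 of 48 genes. The x axis is the log2 difference between melan-a replicates 2 and 3, the y axis is the log2 difference between 4C11− replicate 1 and the mean of replicates 2 and 3, colours give the response class, and the gray box spans the 5th to the 95th percentile of all genes on both axes. Most points lie above 0 on both axes, with 22 genes above 1 on both.

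Across the 4 lines, 29 of the 48 genes differed by limma's moderated F test at an adjusted p under 0.05, where 36.1% of all genes did. The mean was highest in 4C11− for 35 genes (72.9%), against 18.5% of all genes, and lowest in 4C11+ for 25 (52.1%), against 28.5%, and in melan-a for 14 (29.2%), against 22.7%. The heatmap of the libraries shows this as a band of high values in 4C11− for most rows of each class. The order of the means was counted with all libraries only, and 4C11− replicate 1 was high within its line. Without that library the median difference of the 48 genes between 4C11− and 4C was 0.50, against 1.11 with it. The F test then called 31 of the 48 genes and 5889 of all genes.

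**Figure D2:**
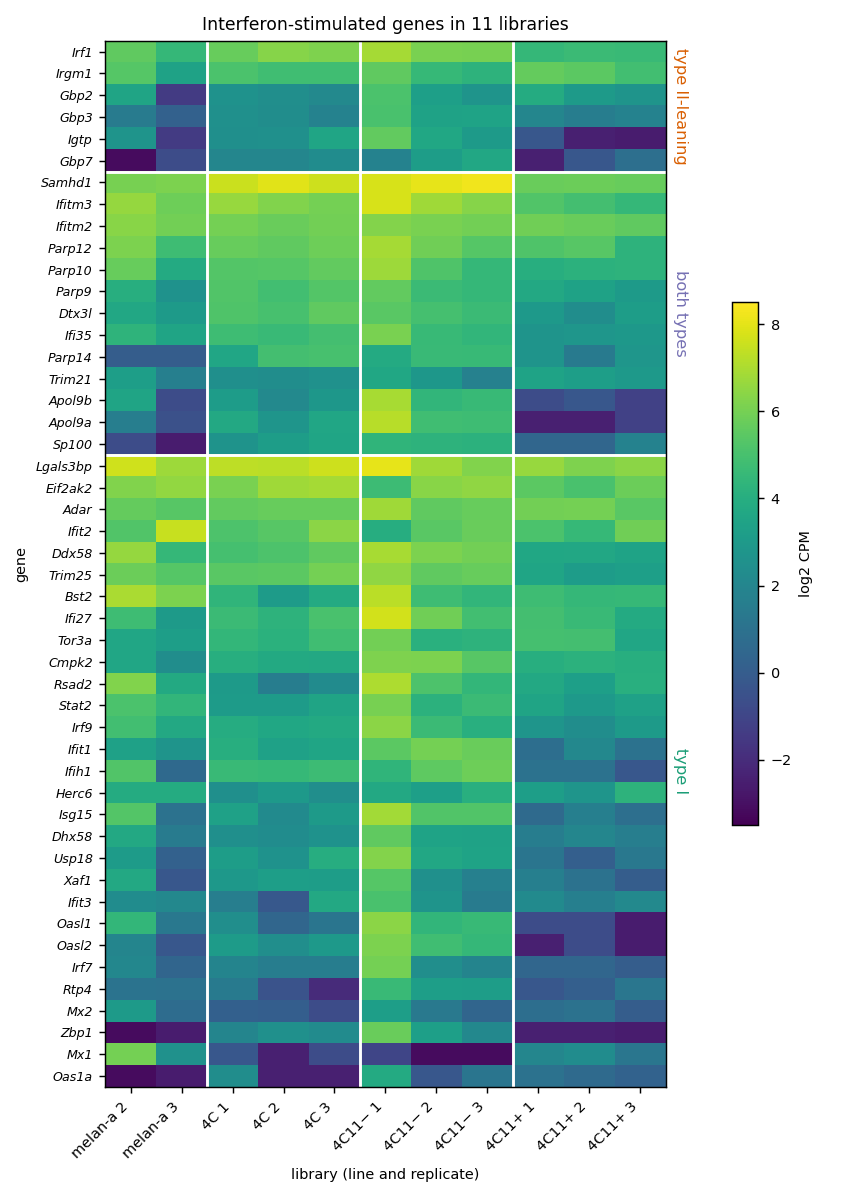
Rows are the 48 genes, grouped by response class and sorted by their mean, columns are the 11 libraries in the order of the lines, and colour is log2 CPM. Samhd1 changes between lines with a range within a line of at most 0.45, while Isg15, Gbp2 and Igtp differ by 4.26, 4.92 and 4.15 between the 2 melan-a libraries.

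The step with the most calls was that from 4C11− to 4C11+, the lines of non-metastatic and metastatic melanoma. In 4C11+, 28 of the 48 genes fell and 1, Mx1, rose by limma at an adjusted p under 0.05, where 15.4% of all genes were lower and 15.6% higher. The median difference was −2.05, against 0.12 over all genes, and 44 of the 48 differences were below 0. The genes that fell comprised 15 of 29 of type I, 9 of 13 of both types and 4 of 6 of the type II-leaning list, with class medians of −1.84, −2.07 and −1.95. Without 4C11− replicate 1, 29 fell and 1 rose, where 2191 of all genes fell and 2482 rose. The type I median was then −1.19.

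From melan-a to 4C, the first step of the series, 8 genes rose and 3 fell, where 7.64% of all genes were higher and 7.55% lower. The genes that rose were Samhd1, Sp100, Parp9, Parp14, Dtx3l, Apol9a, Gbp7 and Zbp1, so that 6 were of both types, 1 was type II-leaning and 1 was of type I. Those that fell, Mx1, Rsad2 and Bst2, were all of type I. The class medians were 0.09 for type I (−0.03 with genes at the floor set to their bounds), 1.30 for both types and 1.37 for the type II-leaning genes, and whether the classes differ was not tested. The count depended on the libraries, since without melan-a replicate 2 there were 14 genes that rose and 1 that fell, without melan-a replicate 3 there were 6 and 4, and without both libraries that stood apart 21 and 3, with 5 of the 6 type II-leaning genes among the 21. Of all genes, 1157 rose and 717 fell in the first of these fits, 935 and 918 in the second and 1491 and 1104 in the last. The median of the 48 genes was 0.58 with all libraries and −0.26 without melan-a replicate 3. The medians of type I, both types and the type II-leaning genes were −0.62, 0.46 and 0.30 without melan-a replicate 3 and 0.66, 1.60 and 2.42 without replicate 2.

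From 4C to 4C11−, Cmpk2, Ifit1, Rsad2 and Rtp4 rose and no gene fell, where 1.26% of all genes were higher and 0.406% lower. All 4 are of type I, and the type I median was 1.43, against 0.30 for both types, 1.01 for the type II-leaning genes and 0.01 for all genes. At an unadjusted p under 0.05 and without 4C replicate 2, 4C replicate 3 or 4C11− replicate 2, 11, 16 and 18 of the 48 genes passed in limma. How many of all genes did so was not counted. After adjustment 0 of the 48 passed in each of these fits, where 93, 113 and 97 of all genes did. Without 4C11− replicate 1 the count was 2, where 189 of all genes passed. The class medians were then 0.79 for type I, 0.08 for both types and 0.55 for the type II-leaning genes.

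Between the lines of epithelial morphology, 2 genes were higher in 4C11+ than in melan-a, Sp100 and Parp14, and 6 were lower, Oasl1, Oasl2, Trim25, Ddx58, Ifit1 and Ifitm3, where 8.39% of all genes were higher and 7.52% lower. Of the 6, all but Ifitm3 are of type I. Without 4C11− replicate 1 the split was 2 higher and 11 lower, and without 4C11+ replicate 1 it was 1 and 2. Of all genes, 1502 were higher and 1362 lower in the first of these fits and 540 and 549 in the second. The median of the 48 genes was −0.75 with all libraries, −0.07 without melan-a replicate 2 and −1.18 without melan-a replicate 3.

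When the mean of 4C and 4C11− was set against that of melan-a and 4C11+, as the EMT code of the study groups them, 23 genes were higher in the mesenchymal-like lines and 1, Mx1, was lower, where 14.3% of all genes were higher and 15.3% lower. The 23 were 10 of 29 of type I, 9 of 13 of both types and 4 of 6 type II-leaning genes. The class medians were 1.13 (0.96 with bounds), 1.67 and 1.58, against −0.09 for all genes. Without 4C11− replicate 1 the counts were 24 and 2, where 2257 of all genes were higher and 2597 lower. Without both libraries that stood apart the class medians were 0.85, 1.84 and 1.81, and without melan-a replicate 3 the type I median was 0.67. Irf1, Ifitm3, Samhd1, Sp100, Parp10 and Apol9a were picked out by the study from a module of co-expressed genes built on these samples, so their directions are not independent evidence.

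**Figure D3:**
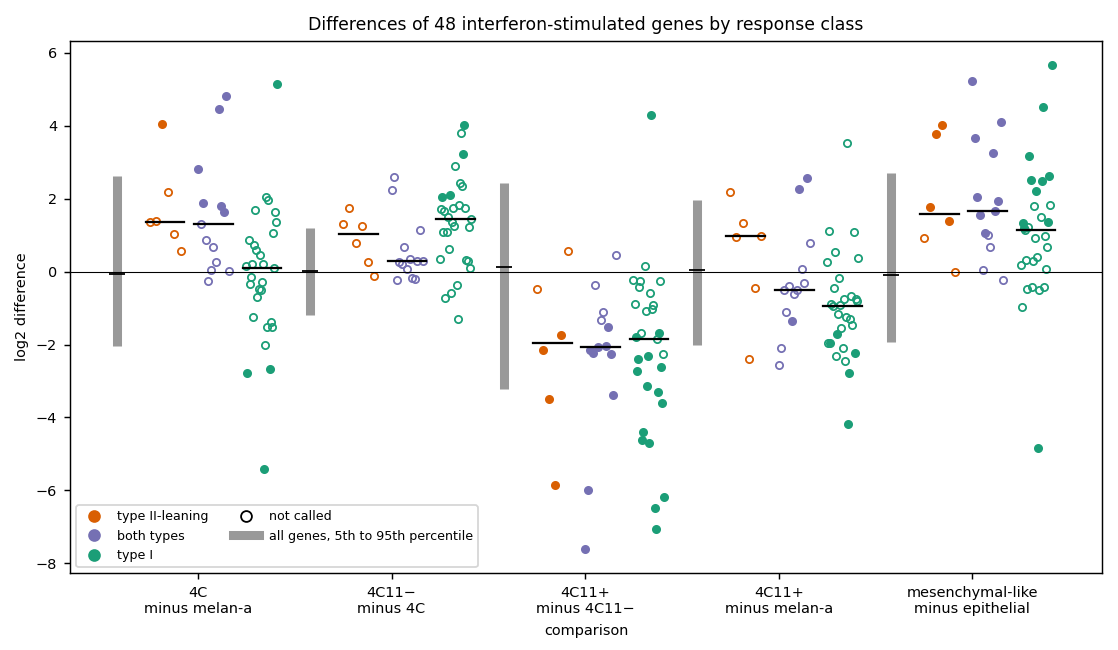
The y axis is the log2 difference of each of the 48 genes in 5 comparisons, with 1 column of points for each response class, filled where the adjusted p was under 0.05, and a black line at the class median. Gray bars span the 5th to the 95th percentile of all genes with their median as a tick, and all 3 class medians lie below it for 4C11+ minus 4C11−.

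Among the transcription factors, Irf1, which is induced by interferon gamma and activates further response genes, was at 5.59 and 4.48 log2 CPM in melan-a, at 5.71, 6.34 and 6.19 in 4C, at 6.88, 6.10 and 6.02 in 4C11− and at 4.51, 4.66 and 4.62 in 4C11+. All 4C and 4C11− libraries were above all melan-a and 4C11+ libraries. It fell by 1.74 ± 0.33 (SE) from 4C11− to 4C11+ (limma, adjusted p = 0.00214), and the difference of 1.04 ± 0.37 between 4C and melan-a did not pass (adjusted p = 0.0849). Irf7, Irf9 and Stat2, of which Irf9 and Stat2 encode subunits of the complex that binds the ISRE, fell by 3.13, 2.32 and 1.69 from 4C11− to 4C11+ and passed no other step.

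The sensors of cytosolic nucleic acid were Ddx58 (RIG-I), Ifih1 (MDA5), Dhx58 (LGP2) and Zbp1, which binds left-handed nucleic acid and can trigger necroptosis. All 4 fell in 4C11+ against 4C11−. Zbp1 was at −3.15 and −2.58 in melan-a, at 1.96, 2.52 and 2.31 in 4C, at 5.75, 3.25 and 2.09 in 4C11− and at −2.44, −2.44 and −2.58 in 4C11+, so that no epithelial library held more than 3 reads. It was higher by at least 2.66 in 4C than in melan-a (limma, adjusted p = 0.00154) and lower by at least 3.67 in 4C11+ than in 4C11− (adjusted p = 9.41e-05).

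Ddx58 was at 6.62 and 4.51 in melan-a, at 4.98, 5.17 and 5.56 in 4C, at 6.95, 6.11 and 5.93 in 4C11− and at 3.66, 3.70 and 3.45 in 4C11+. Its 4C11+ libraries were the lowest of the series, 2.73 ± 0.46 below 4C11− (limma, adjusted p = 0.000943) and 1.96 ± 0.52 below melan-a (adjusted p = 0.0246). Ifih1 was at 4.61, 4.52 and 4.73 in 4C and at 1.04, 1.04 and −0.24 in 4C11+, with the melan-a and 4C11− values given above. The 2 melan-a libraries lay on either side of its 4C values, and it fell by 4.63 ± 0.91 from 4C11− to 4C11+ (limma, adjusted p = 0.00259).

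Of the RNA-binding effectors, Ifit1, which binds RNA without a methylated cap, was at 3.37 and 2.71 in melan-a, at 4.02, 3.35 and 3.57 in 4C, at 5.47, 5.98 and 5.75 in 4C11− and at 0.84, 2.09 and 1.04 in 4C11+. The 4C11− libraries were above and the 4C11+ libraries below all others. It rose by 2.09 ± 0.38 from 4C to 4C11− (limma, adjusted p = 0.0195) and fell by 4.41 ± 0.38 from there to 4C11+ (adjusted p = 6.22e-06). Its neighbours on chromosome 19, Ifit2 and Ifit3, passed no comparison, and 31.7% of the 100-base stretches of Ifit3 transcripts also occur in Ifit3b, so the assignment of its reads is uncertain.

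Oasl1 and Oasl2, related to the oligoadenylate synthetases and 11005 bases apart on chromosome 5, were nearly absent from 4C11+. Oasl2 was at 1.97 and −0.24 in melan-a, at 3.09, 2.41 and 2.97 in 4C, at 6.15, 4.80 and 4.49 in 4C11− and at −2.44, −0.70 and −2.58 in 4C11+. The 4 lines did not overlap for Oasl2, with 4C11− above 4C, 4C above melan-a and melan-a above 4C11+. It was lower by at least 5.12 in 4C11+ than in 4C11− (limma, adjusted p = 1.59e-05) and by at least 0.85 than in melan-a (adjusted p = 0.0314).

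Oasl1 was at 4.43 and 1.29 in melan-a, at 2.44, 0.44 and 1.18 in 4C, at 6.42, 4.40 and 4.60 in 4C11− and at −0.70, −0.70 and −2.58 in 4C11+. It was lower by at least 5.12 in 4C11+ than in 4C11− (limma, adjusted p = 0.000205), and its melan-a and 4C libraries overlapped. Oas1a, an oligoadenylate synthetase proper, passed no comparison, and 40.9% of its 100-base stretches are shared with Oas1g. Adar, which edits double-stranded RNA, and Eif2ak2, the kinase PKR, also passed none. Eif2ak2 was at 6.22 and 6.55 in melan-a, at 6.08, 6.81 and 6.88 in 4C, at 4.72, 6.35 and 6.53 in 4C11− and at 5.47, 5.04 and 5.82 in 4C11+, and only 4C11− replicate 1 lay below its 4C11+ libraries.

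The genes of ISG15 conjugation and of ubiquitin ligases were compared next. Isg15, the ubiquitin-like modifier, was at 5.30 and 1.04 in melan-a, at 3.35, 2.26 and 3.03 in 4C, at 6.82, 5.26 and 5.25 in 4C11− and at 0.63, 1.68 and 0.88 in 4C11+. Melan-a replicate 2 lay within the range of 4C11− and replicate 3 within that of 4C11+, and it fell by 4.71 ± 0.87 from 4C11− to 4C11+ (limma, adjusted p = 0.00171). Usp18, the protease that removes ISG15 and restrains the type I receptor, was at 3.08 and 0.22 in melan-a, at 3.20, 2.60 and 3.99 in 4C, at 6.27, 3.70 and 3.48 in 4C11− and at 1.18, 0.15 and 1.32 in 4C11+. Its 4C and 4C11− libraries overlapped, and it fell by 3.60 ± 0.84 at the same step (limma, adjusted p = 0.0068).

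Trim25, the ubiquitin ligase that acts on RIG-I, was at 5.79 and 5.32 in melan-a, at 5.44, 5.48 and 6.01 in 4C, at 6.50, 5.59 and 5.71 in 4C11− and at 3.55, 3.13 and 3.25 in 4C11+. The first 3 lines overlapped, and 4C11+ was 2.63 ± 0.30 below 4C11− (limma, adjusted p = 5.58e-05) and 2.24 ± 0.34 below melan-a (adjusted p = 0.00123). Dtx3l, the ligase that pairs with PARP9, was at 3.69 and 3.03 in melan-a, at 5.21, 4.99 and 5.57 in 4C, at 5.43, 4.95 and 4.68 in 4C11− and at 3.0, 2.39 and 3.17 in 4C11+. Its epithelial libraries were all below its mesenchymal-like ones, with a difference of 1.89 ± 0.37 between 4C and melan-a (limma, adjusted p = 0.00446). Trim21, a cytosolic antibody receptor, and Herc6, the mouse ligase for ISG15, passed no comparison.

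Of the 4 ADP-ribosyltransferases, which modify proteins with ADP-ribose, Parp14 and Parp9 rose from melan-a to 4C and fell from 4C11− to 4C11+. Parp14 was at 0.06 and 0.06 in melan-a, at 3.62, 4.93 and 5.00 in 4C, at 3.84, 4.62 and 4.58 in 4C11− and at 2.69, 1.44 and 2.81 in 4C11+. It was higher by 4.45 ± 0.53 in 4C than in melan-a (limma, adjusted p = 0.000131) and higher by 2.25 ± 0.53 in 4C11+ than in melan-a (adjusted p = 0.016), so that 4C11+ lay between melan-a and the mesenchymal-like lines without overlap. Parp9 was at 4.03 and 2.64 in melan-a, at 5.22, 4.89 and 5.30 in 4C, at 5.62, 4.69 and 4.48 in 4C11− and at 3.73, 3.41 and 3.06 in 4C11+. It rose by 1.80 ± 0.46 from melan-a to 4C (limma, adjusted p = 0.0196) and fell by 1.53 ± 0.41 from 4C11− to 4C11+ (adjusted p = 0.0142). Parp9 and Dtx3l overlap head to head on opposite strands by 682 bases of chromosome 16, with Parp14 54966 bases away, and the library was stranded. Parp10 and Parp12 passed no comparison, with differences of −1.32 and −1.10 between 4C11+ and 4C11−.

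Restriction factors act on viral entry, assembly and replication. Samhd1, which depletes deoxynucleotides, was at 6.02 and 6.12 in melan-a, at 7.56, 7.98 and 7.58 in 4C, at 7.77, 8.04 and 8.22 in 4C11− and at 5.75, 5.80 and 5.72 in 4C11+. The range within a line was at most 0.45, and every mesenchymal-like library was above every epithelial one, by 1.94 ± 0.15 on average (limma, adjusted p = 1.46e-06). Sp100, a component of nuclear bodies, was at −0.72 and −2.58 in melan-a, at 2.67, 3.20 and 3.57 in 4C, at 4.33, 4.28 and 4.23 in 4C11− and at 0.44, 0.44 and 1.84 in 4C11+. It was higher by at least 3.54 in 4C and by at least 1.30 in 4C11+ than in melan-a, where it was at 3 reads or fewer (limma, adjusted p = 0.000203 and 0.0163), and the lines did not overlap.

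Ifitm3, a membrane protein that blocks viral fusion, was at 6.61 and 5.85 in melan-a, at 6.65, 6.22 and 5.97 in 4C, at 7.77, 6.78 and 6.31 in 4C11− and at 5.23, 4.91 and 4.50 in 4C11+. Its 4C11+ libraries were the lowest, 2.07 ± 0.38 below 4C11− (limma, adjusted p = 0.00152) and 1.35 ± 0.42 below melan-a (adjusted p = 0.0492). Its neighbour Ifitm2, 53598 bases away on chromosome 7, stayed between 5.57 and 6.36 in all 11 libraries and passed no comparison, and 30.4% of its 100-base stretches are shared with the overlapping Gm45717.

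Mx1, which belongs to the dynamin-like GTPases, went the other way. It was at 5.97 and 2.59 in melan-a, at −0.25, −2.44 and −0.70 in 4C, at −1.01, −3.15 and −3.15 in 4C11− and at 2.00, 2.32 and 1.20 in 4C11+. Every epithelial library was above every mesenchymal-like one. It fell by 5.41 ± 1.04 from melan-a to 4C (limma, adjusted p = 0.00402) and was higher by at least 3.41 in 4C11+ than in 4C11− (adjusted p = 0.00474). Mx2, 72400 bases away on chromosome 16, passed no comparison and had the opposite sign between the tumor lines (−1.02 ± 0.76).

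Rsad2 (viperin) and Cmpk2, a nucleotide kinase gene 12751 bases away on chromosome 12, both rose from 4C to 4C11−. Rsad2 was at 6.22 and 3.78 in melan-a, at 3.06, 1.58 and 2.31 in 4C, at 7.02, 5.16 and 4.44 in 4C11− and at 3.74, 3.28 and 4.07 in 4C11+. The 4C libraries were the lowest, 2.68 ± 0.80 below melan-a (limma, adjusted p = 0.0427) and 3.22 ± 0.72 below 4C11− (adjusted p = 0.0485). Cmpk2 was at 3.60 and 2.37 in melan-a, at 4.01, 3.77 and 3.75 in 4C, at 6.20, 6.11 and 5.37 in 4C11− and at 4.04, 4.23 and 4.01 in 4C11+. The 4C11− libraries of Cmpk2 were above all others, by 2.05 ± 0.35 against 4C (limma, adjusted p = 0.012). Bst2 (tetherin), which holds virus particles at the cell surface, was 2.79 ± 0.70 lower in 4C than in melan-a (limma, adjusted p = 0.0189) and passed no other comparison of lines.

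The 5 interferon-inducible GTPases, which attack the vacuoles of intracellular pathogens, were all type II-leaning. Gbp7 was at −3.15 and −0.70 in melan-a, at 2.02, 2.01 and 2.35 in 4C, at 1.83, 3.17 and 3.69 in 4C11− and at −2.44, −0.24 and 0.88 in 4C11+. Every mesenchymal-like library was above every epithelial one, and it was higher by at least 2.52 in 4C than in melan-a (limma, adjusted p = 0.0149) and lower by 3.49 ± 0.87 in 4C11+ than in 4C11− (adjusted p = 0.01). With Gm43802 it shares 9.59% of its 100-base stretches.

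Gbp3 was at 1.48 and 0.22 in melan-a, at 2.54, 2.36 and 1.83 in 4C, at 5.06, 3.41 and 3.44 in 4C11− and at 2.00, 1.58 and 1.84 in 4C11+. Its 4C11− libraries were above all others, by 2.16 ± 0.51 against 4C11+ (limma, adjusted p = 0.00725). Gbp2, the third gene of the cluster, was at 2.60, 2.41 and 2.15 in 4C, at 5.09, 3.27 and 2.72 in 4C11− and at 3.90, 3.04 and 2.71 in 4C11+, besides the melan-a values above. The 4C11− and 4C11+ libraries overlapped, and its difference of −0.48 ± 1.0 did not pass (limma, adjusted p = 0.752).

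Igtp (Irgm3), an immunity-related GTPase of vacuole membranes, was at 2.72 and −1.42 in melan-a, at 2.47, 2.52 and 3.55 in 4C, at 5.62, 3.66 and 3.03 in 4C11− and at −0.24, −2.44 and −2.58 in 4C11+. It was lower by at least 4.08 in 4C11+ than in 4C11− (limma, adjusted p = 0.00126), and melan-a overlapped with 4C. Igtp overlaps Irgm2 on the same strand and shares 5.16% of its 100-base stretches with it, so the assignment of its reads is uncertain. Irgm1, a regulator of that family, was at 5.35 and 3.40 in melan-a, at 5.11, 4.83 and 4.84 in 4C, at 5.59, 4.54 and 4.26 in 4C11− and at 5.67, 5.49 and 4.87 in 4C11+. The lines overlapped, and no comparison passed. Of the 6 type II-leaning genes, Gbp2 and Irgm1 were thus the ones with no call.

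**Figure D4:**
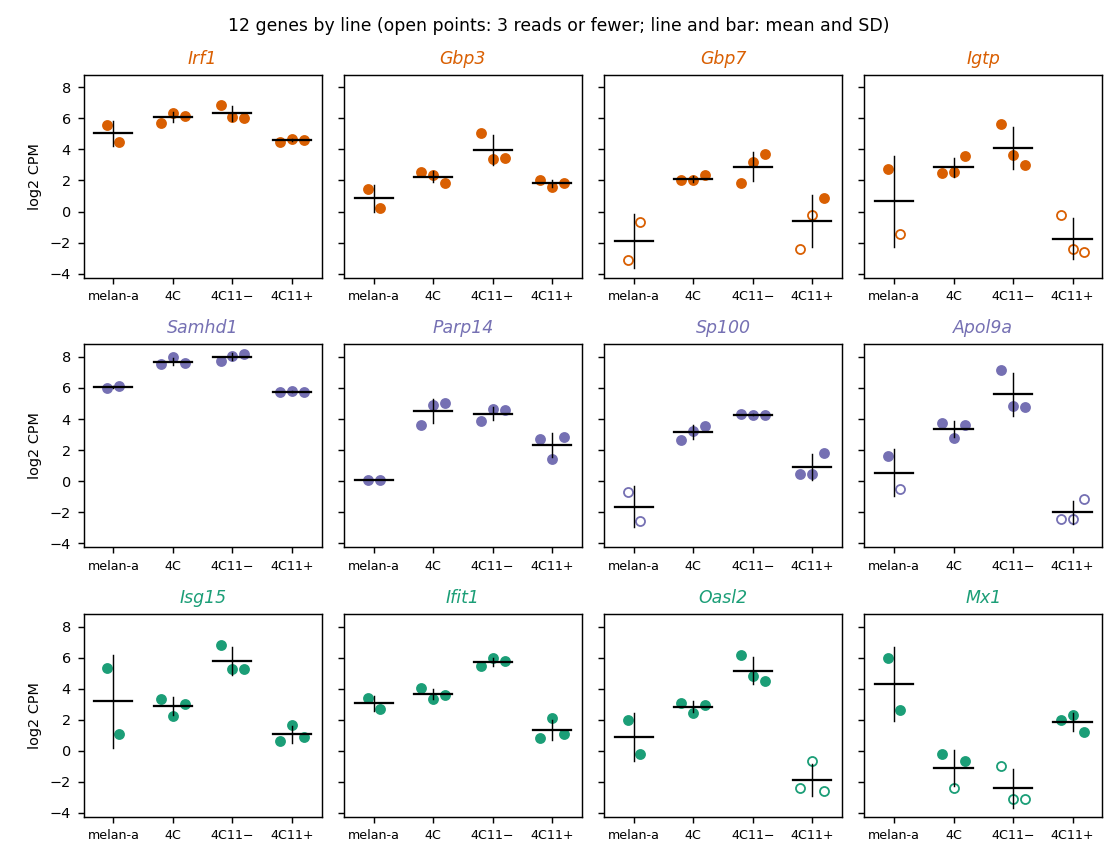
Panels show log2 CPM in each library of the 4 lines for 12 genes, 4 of each response class by row (type II-leaning, both types, type I). Open points are libraries with 3 reads or fewer, and the horizontal and vertical lines are the mean and SD (n = 2 for melan-a, 3 for each other line). Mx1 is high in melan-a and 4C11+, and the other 11 genes are highest in 4C or 4C11−.

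Of the other induced genes, Apol9a and Apol9b, paralogs of the apolipoprotein L family on chromosome 15, had large differences between the tumor lines. Apol9a was at 1.63 and −0.54 in melan-a, at 3.72, 2.75 and 3.60 in 4C, at 7.19, 4.84 and 4.75 in 4C11− and at −2.44, −2.44 and −1.16 in 4C11+. It was higher by 2.81 ± 0.83 in 4C than in melan-a (limma, adjusted p = 0.0405), and lower by at least 5.57 in 4C11+ than in 4C11− (adjusted p = 1.53e-05), with no overlap between lines. Apol9b was at 3.50 and −0.70 in melan-a, at 3.11, 2.17 and 2.84 in 4C, at 6.93, 4.40 and 4.57 in 4C11− and at −0.70, −0.24 and −1.16 in 4C11+, and was lower by at least 5.27 at the same step (adjusted p = 0.000554). The paralogs share 11.7% of the 100-base stretches of Apol9a and 36.7% of those of Apol9b, so reads may be split between them.

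Rtp4, a chaperone of receptors that restricts viral replication, was at 1.05 and 1.04 in melan-a, at 1.40, −0.42 and −2.01 in 4C, at 4.64, 3.23 and 3.16 in 4C11− and at −0.24, 0.15 and 1.20 in 4C11+. Its 4C11− libraries were above all others, by 4.02 ± 0.78 against 4C (limma, adjusted p = 0.0255). Ifi35, a protein of the response that pairs with NMI, was at 4.31 and 3.52 in melan-a, at 4.78, 4.63 and 4.91 in 4C, at 6.07, 4.60 and 4.40 in 4C11− and at 2.69, 2.81 and 2.89 in 4C11+. Ifi35 was lowest in the 4C11+ libraries, 2.23 ± 0.41 below 4C11− (limma, adjusted p = 0.00171).

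Ifi27, Xaf1, Tor3a and Lgals3bp passed no comparison, although Ifi27 and Xaf1 were 1.68 and 2.26 lower in 4C11+ than in 4C11−. Lgals3bp, a secreted glycoprotein, was at 7.61 and 6.72 in melan-a, at 7.29, 7.26 and 7.58 in 4C, at 8.06, 6.77 and 6.23 in 4C11− and at 6.64, 6.18 and 6.43 in 4C11+, with overlap between most lines.

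The genes upstream of the response were then examined. None of the 4 ligand genes listed, Ifnb1, Ifng, Ifnk and Ifne, had a row, and the authors' filter required 1 CPM in 4 libraries. All 6 receptor genes did. From 4C11− to 4C11+, where most of the responsive genes fell, Ifnar1, Ifnar2, Ifngr2 and Il10rb rose, by 0.65 ± 0.21, 0.88 ± 0.29, 0.85 ± 0.29 and 2.38 ± 0.37 (limma, adjusted p = 0.0398, 0.0349, 0.045 and 0.000483). Ifngr1 differed by 0.00 ± 0.28, and Ifnlr1, the receptor chain for interferon lambda, fell by 1.82 ± 0.59 (adjusted p = 0.0351). From melan-a to 4C, Ifnlr1 and Il10rb, which pair in that receptor, fell by 3.61 ± 0.66 and 2.24 ± 0.41 (limma, adjusted p = 0.00288 and 0.00294).

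Ifnlr1 was at 4.31 and 2.75 in melan-a, at 0.87, −0.42 and −0.70 in 4C, at 2.60, 1.14 and 1.72 in 4C11− and at 0.15, −0.24 and 0.06 in 4C11+, and every other line was below melan-a. Il10rb was at 5.68 and 5.09 in melan-a, at 2.86, 3.13 and 3.44 in 4C, at 3.34, 2.60 and 2.32 in 4C11− and at 5.09, 4.66 and 5.66 in 4C11+. Every epithelial library was above every mesenchymal-like one for Il10rb.

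Tyk2, a kinase of the type I receptor, was lower in the mesenchymal-like lines by 1.23 ± 0.28 (limma, adjusted p = 0.00588), and Jak1 and Jak2 passed no comparison.

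Irf8, a transcription factor best known from myeloid cells, had the pattern of Zbp1. It was at −3.15 and −1.42 in melan-a, at 3.0, 2.94 and 2.84 in 4C, at 3.37, 1.77 and 2.17 in 4C11− and at −2.44, −2.44 and −2.58 in 4C11+, and was higher by at least 2.87 in the mesenchymal-like lines (limma, adjusted p = 3.5e-06). Of the 23 upstream genes with a row, 5 rose and 6 fell from 4C11− to 4C11+, where 15.6% of all genes rose and 15.4% fell, with a median of −0.11. Of the 7 sensors and adaptors among them, such as Mavs, Tbk1 and Tmem173 (STING), none passed a comparison of 2 lines, and Tlr3, a sensor of double-stranded RNA, was 1.44 lower in the mesenchymal-like lines (limma, adjusted p = 0.0114).

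A further list of response genes was counted in the same way. Of 17 other type I genes 10 had a row, and 5 of them fell from 4C11− to 4C11+ while none rose, where 15.4% of all genes fell and 15.6% rose. Ddx60, Nmi, Sp110 and Trim30a also passed the comparison of mesenchymal-like with epithelial lines, with Sp110 higher by at least 2.65 and Nmi by 1.14 ± 0.19 (limma, adjusted p = 0.000143 and 0.000617). Of 16 other type II genes 7 had a row, and 3, Gbp6, Gbp9 and Irgm2, fell while 1 rose at the same step.

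The gene that rose was Ifi47, an immunity-related GTPase, at 1.63 and 1.59 in melan-a, −0.70, −1.61 and −0.25 in 4C, 1.46, −0.24 and −1.01 in 4C11− and 3.0, 2.72 and 2.97 in 4C11+. Its 4C11+ libraries were the highest, 2.83 ± 0.62 above 4C11− (limma, adjusted p = 0.00493). Cxcl10, a chemokine for T cells, was at 1.97 and 2.97 in melan-a, 0.20, −1.01 and −3.44 in 4C, 3.54, 2.60 and 2.17 in 4C11− and 2.69, 5.90 and 4.99 in 4C11+. It was 2.82 ± 0.71 lower in the mesenchymal-like lines (limma, adjusted p = 0.0105), with 4C the lowest line.

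The difference between a mesenchymal-like and an epithelial line was measured in 2 pairs that share no library, 4C against melan-a and 4C11− against 4C11+. An interaction contrast in limma compared the signed differences, so that a negative one counts as smaller. The difference was smaller in the first pair for 13 genes and larger for none, where 5.88% of all genes were smaller and 3.95% larger. For Irf9, Stat2, Isg15, Oasl1, Rsad2, Ddx58, Bst2 and Rtp4 the difference was negative in the first pair and positive in the second. Among these genes only Rsad2 and Bst2 passed for 4C minus melan-a. For Irf9, Isg15, Oasl1 and Ddx58 the 4C means were 3.80, 2.88, 1.35 and 5.24. These means lay below melan-a replicate 2 but above melan-a replicate 3, at 3.73, 1.04, 1.29 and 4.51. Of the 13, 11 were of type I, Irf9, Stat2, Isg15, Ifit1, Oasl1, Oasl2, Rsad2, Ddx58, Bst2, Rtp4 and Trim25, and 2 were of both types, Ifitm3 and Apol9a. No type II-leaning gene passed, with a class median of −0.07 (−0.69 with bounds) against −2.54 for type I, and whether the classes differ was not tested. This turned with the libraries: without melan-a replicate 3, 1 type II-leaning gene was smaller and the medians were −1.33 and −3.39, and without both libraries that stood apart 2 were larger and the medians were 0.27 and −1.06. The count was 6 without 4C replicate 2 or 4C11+ replicate 1, and 7 without 4C11+ replicate 2, of which 1 was larger. Of all genes, 865, 770 and 845 passed in these fits in turn, against 1403 with all libraries. Without melan-a replicate 2 the class medians were −1.51 for type I, −0.18 for both types and −0.14 for the type II-leaning genes. With all libraries the median for both types was −0.62.

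For Trim25 the first pair differed by 0.09 and the second by 2.63, and for Ifit1 by 0.60 and 4.41. For Rsad2 the values were −2.68 and 1.84, and for Bst2 −2.79 and 0.88, so that the sign turned. The second value passed on its own for neither gene. Bst2 was at 7.25 in 4C11− replicate 1, at 4.78 and 4.38 in the other 4C11− libraries and at 4.75, 4.47 and 4.56 in 4C11+. The 2 differences of Samhd1, 1.63 and 2.25, and of Dtx3l, 1.89 and 2.16, did not pass this test. Parp14 differed by 4.45 in the first pair and by 2.03 in the second, and Sp100 by at least 3.54 and by 3.37, and neither passed (limma, adjusted p = 0.0558 and 0.308).

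**Figure D5:**
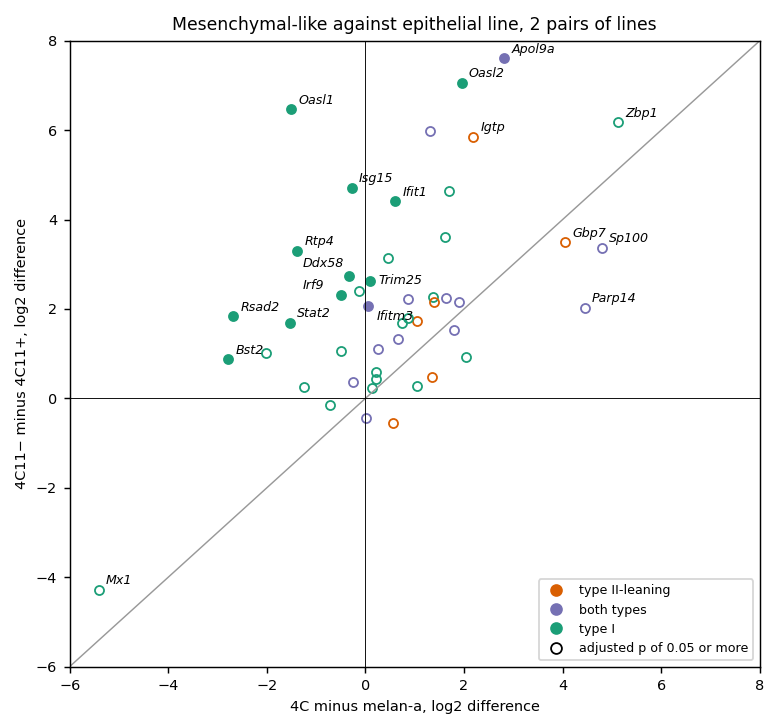
Each point is 1 of 48 genes, with the log2 difference of 4C minus melan-a on the x axis and that of 4C11− minus 4C11+ on the y axis, coloured by response class. Filled points have an adjusted p under 0.05 for the difference between the axes, and all 13 of them lie above the gray line of equal differences.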

How the data were processed

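Total RNA of cultured cells was sequenced with a stranded kit after removal of ribosomal RNA. Per the study's methods, the authors trimmed reads, aligned them with STAR to the mouse genome (Ensembl 90), counted genes with Rsubread, dropped genes that did not reach 1 CPM in 4 or more libraries, and transformed the counts with voom of limma. The submitters' processing notes name Trimmomatic and GRCm38. The deposited values are log2 CPM of 14272 genes, 24 of them without a symbol. The libraries share 1 highest value (13.69) and nearly the same median, as after a quantile step that the methods do not name, so differences are relative to the other genes. A gene expressed in 1 line only could have been lost to the filter.

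Means of the 4 lines were compared in limma 3.58.1 (R 4.3.3) with a mean-variance trend over all 14272 genes and all 11 libraries, with Benjamini-Hochberg adjustment over all genes and a threshold of 0.05. Reads behind low values and the depth (about 3500000 to 7420000 reads) were read from the steps of low values, the latter at 40 reads. Motifs and shared 100-base transcript stretches were counted in Python 3.11.15 with RefSeq promoters and GENCODE transcripts. The fit was tested on simulated data.

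Values in every library are given for genes past the threshold in at least 2 of the 5 comparisons of lines, for all type II-leaning genes and for 3 further genes of high level with no call. Upstream and other response genes are named when past it at least 2 times, besides the receptors, 1 gene that the rule names is not reported here, and genes named beyond these rules were chosen after their values were seen. The genes and lists were chosen with earlier results of these data known. Alternatives were a further quantile normalization, a filter on low means, a pseudocount of 1 CPM, no trend, a replicate block, fits of only the lines compared, and leaving out each library. The labels do not say whether replicate numbers pair the samples, and the main fit did not pair them.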

Additional observations from a re-analysis of the deposited data

Results flagged for a closer look

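The difference between a mesenchymal-like and an epithelial line was not the same in the pair 4C and melan-a as in the pair 4C11− and 4C11+ for 13 genes, by an interaction contrast in limma with an adjusted p under 0.05. The first difference minus the second was −2.82 for Irf9, −3.23 for Stat2, −2.03 for Ifitm3, −4.99 for Isg15, −3.81 for Ifit1, −4.52 for Rsad2, −3.06 for Ddx58, −3.67 for Bst2, −4.69 for Rtp4 and −2.54 for Trim25 on the log2 scale. For 3 genes at 3 reads or fewer in 4C11+ the fitted values were −4.79 for Apol9a, −7.97 for Oasl1 and −5.10 for Oasl2, and with the floor in place of the fitted 4C11+ mean they were −2.76, −6.62 and −3.17. The 2 melan-a libraries differed for many of these genes. The median over the 48 genes was −1.09 with all libraries, −0.67 without melan-a replicate 2 and −1.73 without melan-a replicate 3. The part of PMA, which only melan-a received, cannot be told apart.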

How the results depend on the processing

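None of the 89 gene differences that passed the threshold reversed under the alternatives run, and differences that did not pass were not followed. The number of interferon-stimulated genes called ranged, with each library left out in turn, from 8 to 15 for 4C minus melan-a (11 with all), from 0 to 6 for 4C11− minus 4C (4), from 28 to 33 for 4C11+ minus 4C11− (29), from 3 to 13 for 4C11+ minus melan-a (8), from 20 to 31 for mesenchymal-like minus epithelial (24), from 6 to 18 for the difference between the pairs (13) and from 26 to 32 for any difference (29). Without 1 melan-a library the other is assumed to vary like the other lines. Calls over all genes moved too. For 4C11+ minus 4C11− they were 4433 with all libraries, 2986 without 4C11+ replicate 1 and 4673 without 4C11− replicate 1. With genes of a mean under 1 left out, which leaves 43 of the 48, the count for 4C minus melan-a was 7, where 1589 of 11444 genes passed. With only the libraries of both lines in the fit, the count for 4C11+ minus melan-a was 3, where 1446 of all genes passed. Without both melan-a replicate 2 and 4C11− replicate 1, chosen after the data were seen, that for 4C minus melan-a was 24. The causes were not tested. Residuals of same-numbered libraries correlated at −0.226 to 0.388, and those of differently numbered ones at −0.416 to 0.34. With so few libraries a line, these ranges cannot decide whether the numbers pair them. With the replicate block the counts were 12, 5, 32, 10, 25, 16 and 32 in the same order, each above its count without the block. Of all genes, 2265, 254, 4715, 1930, 4566, 1314 and 5300 passed with the block. Without it 2167, 238, 4433, 2270, 4232, 1403 and 5158 did, so calls over all genes fell for 4C11+ minus melan-a and for the difference between the pairs. At about 3500000 to 7420000 reads a library, a gene with few reads gives only a bound.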
